A study of Mus musculus with 136 samples.

Results

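Peaks of SUZ12 were listed in both MCM2-2A clones, but not in WT cells, at 532 genomic sites that carried no WT H3K27ac peak. They were 532 of the 8774 SUZ12 sites in the lists of 3 clones, or 6.06%. The sites were chosen by measured values: peaks of the WT clone 410 and of the MCM2-2A clones 439 and 442 were merged into sites wherever they overlapped by at least 1 bp, sites held by the lists of 439 and 442 but not by that of 410 were kept, and sites touching an H3K27ac peak of clone 410 were removed. Presence or absence in the SUZ12 lists and absence of H3K27ac are therefore the rule and not a finding, and the SUZ12 values below are given as a description.

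The cells were mouse embryonic stem cells (ESCs) of the male E14JU line, on a 129/Ola background, grown with serum and LIF and otherwise untreated. The MCM2-2A clones 439 and 442 have an MCM2 whose histone-binding region is mutated, and clone 410 is wild type, so each list stands for a single clone. SUZ12 was profiled in 3 replicates per clone by crosslinked chromatin immunoprecipitation and sequencing (ChIP-seq), whereas H3K4me3, H3K27me3, H3K9me3 and H3K27ac were profiled by native ChIP-seq of MNase-digested chromatin. The marks came from WT cells of an original experiment with 2 replicates and, except for H3K27ac, from a later one with 3 replicates that accompanied a rescue clone, here called the rescue experiment.

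SUZ12 belongs to the core of PRC2, a Polycomb repressive complex and the enzyme that methylates lysine 27 of histone H3 and so maintains repression of developmental genes. In ESCs, PRC2 is known to occupy CpG islands, many of them bivalent promoters that hold the activating mark H3K4me3 together with H3K27me3. H3K27ac sits on the same lysine and marks active promoters and enhancers, and H3K9me3 marks repeats and heterochromatin. MCM2, a subunit of the replicative helicase, also binds histones H3 and H4 and helps hand parental histones to the lagging strand, a step that the MCM2-2A mutation impairs.

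The lists held 7571 SUZ12 peaks in clone 439 and 7840 in clone 442, against 6298 in WT clone 410. Each list combines the replicates of 1 clone, gives no read counts and no per-replicate values, and leaves sequencing depth unknown. Consequently, no spread between replicates could be computed, genotype could not be tested with 1 WT list, and an absent peak says only that no peak was listed, not how much SUZ12 was there. The intervals given here are 95% intervals for shares of sites (Wilson) or for differences of shares (Newcombe). They cover counting error over sites only, and neighbouring sites are not independent.

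The promoters at the strongest of these sites show how varied their sequences were. Windows run from 250 bases before to 50 bases after a RefSeq gene start (GRCm38.p6, the assembly also called mm10), are written 5′ to 3′ on the strand of the gene, and have every CpG in capitals. Among the 12 sites strongest by their mean rank over both mutant lists, a window could be shown for 7, and 5 of these follow. They belong to Hoxd4, a homeobox transcription factor (chr2:74721728-74722027, plus strand), Gm30177, whose start lies inside the site over Nrn1 (chr13:36726605-36726904, plus strand), Scmh1, a Polycomb group protein associated with PRC1 (chr4:120405098-120405397, plus strand), Itga4, the integrin alpha 4 chain (chr2:79255176-79255475, plus strand), and Gm35223 (chr5:28123866-28124165, minus strand).
Hoxd4: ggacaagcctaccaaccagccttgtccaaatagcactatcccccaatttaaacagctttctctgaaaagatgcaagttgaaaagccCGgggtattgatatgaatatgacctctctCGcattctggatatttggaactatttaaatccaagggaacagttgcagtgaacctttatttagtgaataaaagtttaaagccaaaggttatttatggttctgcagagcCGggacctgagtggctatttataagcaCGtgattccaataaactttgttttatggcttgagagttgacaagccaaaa
Gm30177: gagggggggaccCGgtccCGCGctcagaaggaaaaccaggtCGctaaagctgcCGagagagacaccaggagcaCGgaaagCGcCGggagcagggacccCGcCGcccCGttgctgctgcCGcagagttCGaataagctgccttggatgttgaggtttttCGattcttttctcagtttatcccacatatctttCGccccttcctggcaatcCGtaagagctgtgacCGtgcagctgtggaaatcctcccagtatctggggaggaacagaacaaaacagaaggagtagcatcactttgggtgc
Scmh1: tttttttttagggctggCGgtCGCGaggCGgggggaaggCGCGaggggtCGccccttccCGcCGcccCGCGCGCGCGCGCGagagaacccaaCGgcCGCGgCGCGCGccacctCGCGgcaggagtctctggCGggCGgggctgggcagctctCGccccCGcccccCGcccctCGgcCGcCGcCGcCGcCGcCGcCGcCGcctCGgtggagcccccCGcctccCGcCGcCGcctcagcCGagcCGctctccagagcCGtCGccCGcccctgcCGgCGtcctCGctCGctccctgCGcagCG
Itga4: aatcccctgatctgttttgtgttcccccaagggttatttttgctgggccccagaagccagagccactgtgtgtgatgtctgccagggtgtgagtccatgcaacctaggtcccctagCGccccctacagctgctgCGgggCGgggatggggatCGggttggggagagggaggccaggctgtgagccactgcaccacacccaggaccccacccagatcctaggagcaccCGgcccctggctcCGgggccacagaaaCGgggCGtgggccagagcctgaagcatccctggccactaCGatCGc
Gm35223: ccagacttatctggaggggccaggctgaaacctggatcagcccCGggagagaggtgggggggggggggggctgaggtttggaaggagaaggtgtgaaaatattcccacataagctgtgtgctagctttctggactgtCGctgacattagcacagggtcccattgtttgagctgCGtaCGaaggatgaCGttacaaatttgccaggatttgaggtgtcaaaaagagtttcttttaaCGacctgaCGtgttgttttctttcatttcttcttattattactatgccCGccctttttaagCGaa
The Scmh1 window held 54 CpGs and 81.3% G+C, whereas the Hoxd4 window held 4 CpGs and 39.7% G+C. The Itga4 window held 10 CpGs at 64.3% G+C, Gm30177 held 17 at 56.7%, and Gm35223 held 9 at 48.7%.

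The extremes of CpG density among protein-coding promoters at the 532 sites, picked after their values were seen, were Zbtb18, a zinc finger repressor (chr1:177444403-177444702, plus strand), and Traf3, an adaptor of TNF receptor signalling (chr12:111166120-111166419, plus strand).
Zbtb18: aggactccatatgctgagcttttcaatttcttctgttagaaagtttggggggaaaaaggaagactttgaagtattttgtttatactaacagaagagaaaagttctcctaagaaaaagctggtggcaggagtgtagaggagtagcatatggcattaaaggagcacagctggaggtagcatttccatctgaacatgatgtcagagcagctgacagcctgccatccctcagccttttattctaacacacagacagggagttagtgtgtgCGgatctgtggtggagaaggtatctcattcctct
Traf3: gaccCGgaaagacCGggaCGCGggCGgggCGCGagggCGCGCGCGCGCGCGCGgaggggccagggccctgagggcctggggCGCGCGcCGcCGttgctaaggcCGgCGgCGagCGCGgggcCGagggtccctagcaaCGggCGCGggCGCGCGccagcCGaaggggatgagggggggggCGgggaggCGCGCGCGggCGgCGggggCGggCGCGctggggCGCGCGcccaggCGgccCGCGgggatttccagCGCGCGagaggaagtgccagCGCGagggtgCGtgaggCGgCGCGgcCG
The Zbtb18 window had 1 CpG, an observed over expected CpG ratio of 0.073, and the Traf3 window had 59, a ratio of 1.20. SUZ12 enrichment at these sites was alike, 9.91-fold in clone 439 and 10.9-fold in clone 442 at Zbtb18, and 9.14-fold in clone 439 and 9.31-fold in clone 442 at Traf3. The Zbtb18 site ended at base 177444538 of chromosome 1, inside its window, and the Traf3 site began at base 111166396 of chromosome 12, so that most of each printed window lay outside the site.

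The strongest site also covered the microRNA gene Mir10b, next to Hoxd4 on chromosome 2, and its mature products are shown because this site had the highest SUZ12 enrichment of the 532 in both mutant clones. Capitals mark the seed, bases 2 to 8.
mmu-miR-10b-5p: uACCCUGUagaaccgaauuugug
mmu-miR-10b-3p: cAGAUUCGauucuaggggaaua
The hairpin arms lie at chr2:74726074-74726096 (5p) and chr2:74726114-74726135 (3p) on the plus strand, within the 20379-bp site. In all, 8 miRNA genes had a start at one of the 532 sites. Their number at all SUZ12 sites was not counted, so it cannot be said whether 8 is many or few.

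SUZ12 enrichment at the sites was mostly low for a SUZ12 peak. Fold enrichment over background, as the peak caller gave it for the strongest peak of a site, had a median of 6.75 in clone 439 (2.33 to 58.2) and 6.62 in clone 442 (2.99 to 43.5). At the 3949 common sites without H3K27ac, which all 3 lists held, the medians were 20.7 in clone 439 and 18.7 in clone 442. Both sets of values belong to the lists that chose the sites. On a rank scale that runs up to 1 for the strongest peak of a list, 285 of the 532 sites ranked below 0.25 in clone 439 and 264 in clone 442, with 190 below 0.25 in both. At the other end, 9 sites ranked at 0.5 or above in both lists. Across the 532 sites, enrichment in clones 439 and 442 had a Pearson r of 0.641 on the log2 scale and a Spearman rho of 0.537, over sites that share the libraries and the rule.

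**Figure D1:**
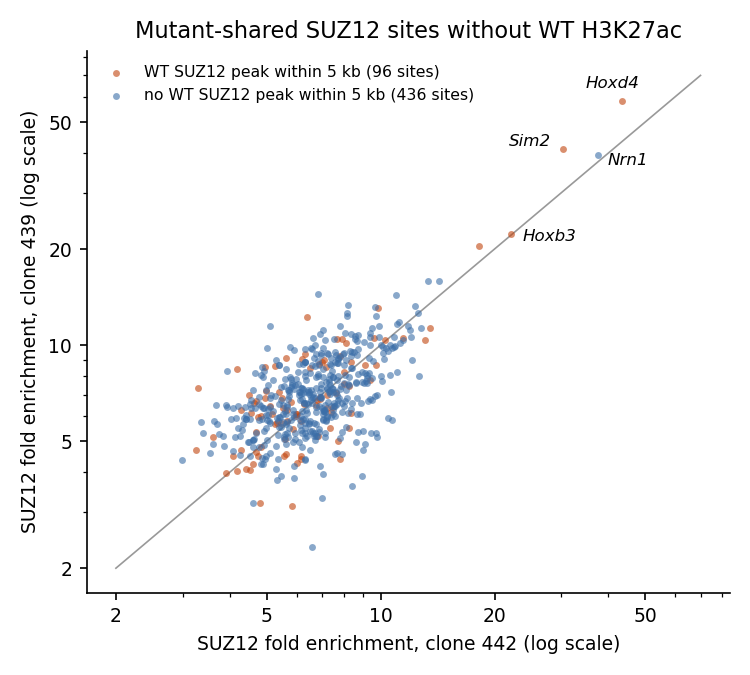
SUZ12 fold enrichment at each of the 532 sites in clone 442 (horizontal, log scale) and clone 439 (vertical, log scale), coloured by whether a WT SUZ12 peak lies within 5 kb (5000 bp), with the line of equal values. Nearly all sites crowd around the medians of 6.75 (439) and 6.62 (442), and Hoxd4, Sim2, Nrn1 and Hoxb3 stand above 20-fold in both clones.

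The peaks of the clones lay close together within the sites, which the rule favours because it takes overlapping peaks of both mutant lists. Summit distances were not computed at other SUZ12 sites, so this is a description. The summits of the strongest peaks in 439 and 442 were 62 bp apart at the median, within 200 bp at 440 of 532 sites (82.7%) and within 500 bp at 509 (95.7%). In 511 sites, each mutant list held a single peak. The sites were narrow, with a median width of 1585 bp (379 to 20379 bp), against 1748 bp at the 412 mutant-shared sites with H3K27ac and 3152 bp at the common sites without it. The 5 widest were those at Hoxd4, Nrn1, Sim2 and Hoxb3 and one of 6459 bp between genes, 326685 bp from the nearest protein-coding gene, Tmco5.

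The 12 strongest sites, ordered by their mean on this rank scale over both mutant lists, included regulators of development. The site at Hoxd4 and Mir10b (chr2:74720857-74741235) had a fold enrichment of 58.2 in clone 439 and 43.5 in clone 442, ranks 574 and 714 of those lists. The site next to Sim2 (chr16:94075430-94082744), which encodes a bHLH-PAS transcription factor, had 41.2 in clone 439 and 30.3 in clone 442. A site within Hoxb3 (chr11:96323870-96329703), a homeobox gene of the HoxB cluster, had 22.4 in clone 439 and 22.2 in clone 442. All 3 lay at the edge of SUZ12 chromatin that the WT list also held: the nearest WT peak was 90 bp away at Hoxd4, 79 bp at Sim2 and 74 bp at Hoxb3. The WT list had a peak within 5000 bp on both sides of the Hoxb3 site, and such a gap between WT peaks was seen at 14 of the 532 sites.

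The second strongest site was different in its surroundings. It covered Nrn1 (chr13:36722555-36738510, 15956 bp), which encodes neuritin, a GPI-anchored protein of neurite growth, with a fold enrichment of 39.4 in clone 439 and 37.6 in clone 442. The nearest WT SUZ12 peak was 572737 bp away, and neither WT experiment listed an H3K27me3 region over the site. WT H3K4me3 was present at 56.9-fold in the original and 58.3-fold in the rescue experiment. The strongest summits of 439 and 442 were 10353 bp apart here, so the clones did not share the highest point of this wide site.

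Next in rank were genes of diverse function at lower enrichment. Gm8909 had 20.4 in clone 439 and 18.2 in clone 442. Slc8a2, a sodium-calcium exchanger of neurons, had 15.9 in clone 439 and 14.3 in clone 442 at a site inside the gene. A 5743-bp site shared by Cd151, a tetraspanin, and Cracr2b, a regulator of store-operated calcium channels, had 15.9 in clone 439 and 13.3 in clone 442. Scmh1 stood out for its own role in the Polycomb system, with 13.2 in clone 439 and 12.4 in clone 442. Ahnak2, a large scaffold protein gene, had 12.6 in clone 439 and 12.5 in clone 442 at a site within the gene. Itga4 had 14.3 in clone 439 and 11 in clone 442, the noncoding locus Gm35223 had 11.3 in clone 439 and 13.5 in clone 442, and Bcl9l, a beta-catenin coactivator, had 11.3 in clone 439 and 12.8 in clone 442. Below the first 4, the strongest sites thus fell off quickly towards the bulk.

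Some sites ranked far apart in the clones. Atg16l2, a homologue of an autophagy gene, had 11.5-fold enrichment in clone 439 and 5.11-fold in clone 442. Cdk5r1, the activator of the neuronal kinase CDK5, had 14.5 in clone 439 and 6.84 in clone 442, Ablim1, an actin-binding LIM protein gene, had 9.80 in clone 439 and 5.01 in clone 442, and Clec3b, a C-type lectin gene, had 8.31 in clone 439 and 3.93 in clone 442. The opposite order was largest at Mast1, a microtubule-associated kinase gene, with 3.90 in clone 439 and 8.96 in clone 442, and at Dnmbp, a dynamin-binding scaffold gene, with 3.62 in clone 439 and 8.42 in clone 442. Lrrc24 followed, with 5.14 in clone 439 and 9.79 in clone 442. With 1 list per clone, these gaps have no replicate error to be set against, and each is the extreme of 532 values.

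Most sites had no WT SUZ12 peak within 5000 bp, in a list that the rule itself used. The distance to the nearest WT SUZ12 peak had a median of 51853 bp, less than the 84686 bp at the 412 mutant-shared sites with H3K27ac. Such a peak lay within 5000 bp of 96 sites (18%), and 177 (33.3%) had none within 100000 bp. The farthest were Gm527 with Gm51965 (2299360 bp), Sun3 with Gm11992 (1833496 bp), Rnf138rt1 (1599656 bp), a site between genes nearest to Plch1 (1202317 bp), and Pclo (1114408 bp), which encodes the presynaptic scaffold Piccolo. Besides Hoxb3, Sim2 and Hoxd4, the nearest were a site in the microRNA host gene Mir670hg (96 bp) and one near Foxd1 (99 bp), a forkhead regulator. A single site on chromosome Y had no WT SUZ12 peak on its chromosome.

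Sites beside WT SUZ12 peaks and sites away from them differed in WT H3K4me3, which the rule did not use. An H3K4me3 peak was present at 74 of the 96 sites with a WT SUZ12 peak within 5000 bp (77.1%) and at 433 of the 436 others (99.3%), a difference of -22.2 percentage points (95% interval -31.6 to -14.8). The rescue experiment gave 78.1% and 99.3%. Of the 25 sites without H3K4me3, 22 were such neighbours of WT peaks. They included flanks of developmental regulators, named after their values were seen: Barx1, Skor2, Foxd1, Fezf1, Neurod2 and Vax1. Genes of other kinds were among these 22 sites too, such as Cck, Adra1d, Htr4, Grm8, Tpm1, Asic4 and Coro6. Median enrichment was 6.52 in clone 439 and 6.09 in clone 442 at the near sites, against 6.82 in clone 439 and 6.71 in clone 442 at the others. H3K27me3 was listed at 58.3% of the near sites and at 56.7% of the others, which differed by 1.68 points (-9.31 to 12.1) in the original experiment. With the rescue list H3K27me3 was at 84.4% of the near sites and at 75.2% of the others, which differed by 9.15 points (-0.234 to 16.4). Both intervals hold 0.

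**Figure D2:**
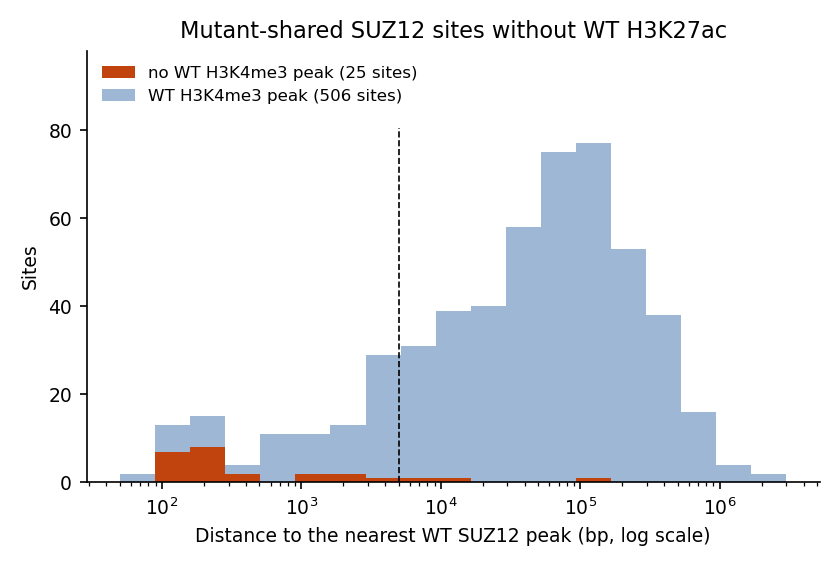
Number of sites by distance to the nearest WT SUZ12 peak (bp, log scale), split into sites without a WT H3K4me3 peak (25) and with one (506), for the 531 sites with a WT SUZ12 peak on their chromosome. The dashed line marks 5000 bp, and 22 of the 25 sites without H3K4me3 lie to its left.

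In WT cells, histone marks were found at the sites about as often as at SUZ12 sites in general. H3K4me3 overlapped 507 of 532 sites in the original experiment (95.3%, interval 93.2% to 96.8%), against 93.9% of all SUZ12 sites. H3K27me3 overlapped 303 (57.0%, interval 52.7% to 61.1%), against 57.2% of all sites. Both marks together, the bivalent combination, were found at 291 (54.7%, interval 50.5% to 58.9%), against 53.8% of all sites. H3K9me3 overlapped 7 sites (1.32%, interval 0.639% to 2.69%), against 2.06% of all sites. The remaining sites had H3K4me3 alone (216, or 40.6%), H3K27me3 alone (12) or neither mark (13).

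The share with H3K27me3 depended on the experiment. In the rescue experiment, 409 sites carried H3K27me3 (76.9%), 390 both marks (73.3%) and 26 H3K9me3 (4.89%), whereas H3K4me3 stayed at 508 (95.5%). H3K27me3 was listed in both experiments at 243 sites, in the rescue experiment alone at 166, in the original alone at 60 and in neither at 63. H3K4me3 was listed in both at 504. The broad lists differed even at the HoxD locus, where the site at Hoxd4 lay in a 163741-bp H3K27me3 region in the original experiment and in none in the rescue experiment. The site nearest to Hoxc4 likewise lay in a 357131-bp region in the original experiment and in none in the rescue experiment. An absent H3K27me3 region therefore says only that none was listed, and the shares count listed regions. The rescue lists were longer, with 63473 against 41869 H3K27me3 regions and 104026 against 40376 H3K9me3 regions.

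**Figure D3:**
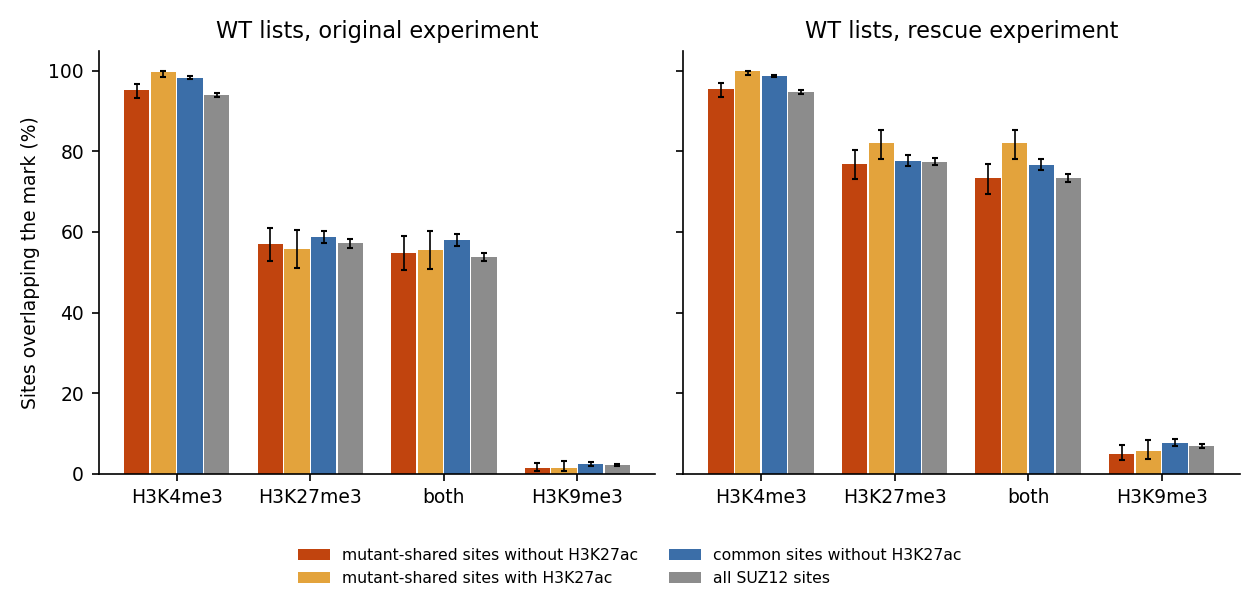
Share of sites overlapping WT H3K4me3, H3K27me3, both or H3K9me3 (%), in the original (left) and rescue (right) experiments, for the 532 sites and 3 other sets, with 95% Wilson intervals. H3K27me3 was at 57.0% of the 532 sites in the original and 76.9% in the rescue experiment, and it was also higher in the rescue experiment in each of the other sets.

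Against the 412 mutant-shared sites with H3K27ac, which differ by the H3K27ac rule alone, the sites had H3K4me3 less often (95.3% against 99.8%), a difference of -4.46 points (95% interval -6.61 to -2.59). H3K27me3 was at 57.0% of them and at 55.8% of the sites with H3K27ac, differing by 1.13 points (-5.22 to 7.49). Both marks were found at 54.7% of them and at 55.6% of the sites with H3K27ac, differing by -0.883 points (-7.24 to 5.50) in the original experiment. In the rescue experiment the difference in both marks was -8.73 points (-13.9 to -3.36), so whether the sets differed depended on the lists used. With the rescue list the difference in H3K27me3 was -5.16 points (-10.2 to 0.077), an interval that holds 0. The strongest H3K4me3 peak had a median fold enrichment of 39.2 over the 507 sites that held one, against 77.0 at 411 mutant-shared sites with H3K27ac. H3K27me3 regions at the sites had a median width of 11581 bp (303 sites), against 7506 bp (230 sites). These medians carry no test.

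Against the 3949 common sites without H3K27ac, H3K4me3 was less frequent at the 532 sites (95.3% against 98.3%), a difference of -3 points (-5.18 to -1.44). Among common sites of like strength this difference was not resolved. Of 660 whose mean on the rank scale lay within the 10th to 90th percentiles of the 532 sites, 93.3% had H3K4me3. The difference was then 1.97 points (-0.747 to 4.6), an interval that holds 0. Among the 1408 common sites of like width, within the same percentiles of width, the difference was -2.92 points (-5.14 to -1.21). Both sets share only these ranges with the 532 sites and were not matched within them. H3K27me3 was at 57.0% of the 532 sites and at 58.8% of the common sites, a difference of -1.82 points (-6.33 to 2.60), and H3K9me3 at 1.32% and at 2.38%, a difference of -1.06 points (-1.92 to 0.376). These intervals hold 0, so a difference of up to a few points could not be resolved in the original experiment. With the rescue lists the difference in H3K9me3 was -2.73 points (-4.5 to -0.42), which excludes 0, and that in H3K27me3 was -0.811 points (-4.79 to 2.82). H3K27me3 regions at common sites were wider, with a median of 18911 bp over 2321 sites against 11581 bp.

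A gene start lay within 2500 bp of 324 of the 532 sites (60.9%, interval 56.7% to 65.0%), a smaller share than the 73.9% over all SUZ12 sites. For genes whose strand was not given in the annotation used here, either gene end counted. Of the common sites without H3K27ac, 78.3% were near a start, a difference of -17.4 points (-21.8 to -13.1), and of the mutant-shared sites with H3K27ac 82.5% were, a difference of -21.6 points (-27.0 to -16.0). The difference from common sites was smaller among those in the same range of width or strength, in comparisons added after seeing the data. Against 1408 common sites of like width, 71.2% of them near a start, it was -10.3 points (-15.1 to -5.61), and against the 660 of like strength, 64.1% of them near a start, it was -3.19 points (-8.71 to 2.32). A further 122 sites (22.9%) lay within a gene away from listed starts, and 86 (16.2%) lay between genes. H3K4me3 was found at 96.9% of the sites at gene starts, 95.1% of those within genes and 89.5% of those between genes, and H3K27me3 at 58.6%, 50.8% and 59.3% of the same sets.

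Within 2500 bp of the sites lay the starts of 321 protein-coding genes (either end where the strand was not given), 5.56% of the 5774 such genes at any SUZ12 site, and 48 of the 321 also had a start at a site of the WT list. The gene lists below were chosen with earlier results of these data known and are described by counts alone, beside that 5.56%. Lists of developmental transcription factors had few members here. The rule leaves out sites with a WT SUZ12 peak, so genes whose only SUZ12 sites are in the WT list could not be counted. Of all 5774 genes, 4357 were at a WT SUZ12 site. So were 151 of the 156 homeobox and related genes and 61 of the 65 forkhead, T-box, Sox and Gata genes. The same held for 44 of the 48 bHLH and 33 of the 41 Krueppel-like genes. Of 156 homeobox and related genes at SUZ12 sites, 2 (Hoxd4 and Pou3f1, an octamer-binding factor of neural cells) were at the 532 sites, and of 65 forkhead, T-box, Sox and Gata genes 1 was (Foxk1). None of 48 listed bHLH and neurogenic genes was, nor any of 41 Krueppel-like, Egr, Zic and Gli-similar genes. The list of bHLH genes did not include Sim2, a bHLH-PAS gene that is among the 321. The site near Pou3f1 (7.56 in clone 439 and 7.99 in clone 442) lay 171 bp from a WT SUZ12 peak.

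Signalling and axon guidance genes were also few, and most of these too were at a WT SUZ12 site (96 of 109 and 53 of 61). Of 109 genes of the Wnt, Fgf, Bmp, Hedgehog and Notch pathways, 2 had a start at the sites: Tcf7l2, the Wnt transcription factor (7.62 in clone 439 and 8.62 in clone 442), and Dkk3, of the Dickkopf family (6.46 in clone 439 and 6.89 in clone 442). Of 61 axon guidance genes, 1 did, the semaphorin Sema3e (8.05 in clone 439 and 10.6 in clone 442), 624242 bp from any WT SUZ12 peak. Of 93 neurotransmitter receptor and synaptic genes, 5 did (5.38%, close to the 5.56% of all genes): Adra1d, Htr4, Htr3b, Grm6 and Grm8, which encode receptors for noradrenaline, serotonin and glutamate. At 4 of these 5 a WT SUZ12 peak was within 306 bp, the exception being Htr3b at 122285 bp.

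Zinc finger and matrix genes were the most numerous. Of 75 Zfp zinc finger genes at SUZ12 sites, 9 were at the 532 sites (12%), against 5.56% of all genes. None of the 9 had another site in the WT list. Fewer genes of this list were at a WT SUZ12 site, 46 of 75 against 4357 of all 5774, so the rule left a larger part of it to be counted. These shares carry no test. Zfp318 was the strongest, with 10.6 in clone 439 and 12.1 in clone 442, followed by Zfp358 with 8.68 in clone 439 and 7.99 in clone 442. Zfp287, Zfp282, Zfp647 and Zfp607b came next. Of 88 extracellular matrix and integrin genes, 70 of them at a WT SUZ12 site, 8 were at the 532 sites (9.09%). Besides Itga4 these were the gelatinase genes Mmp2 (9.25 in clone 439 and 8.35 in clone 442) and Mmp9 (7 in clone 439 and 9.76 in clone 442), the laminin gene Lama4, and the collagen genes Col6a6, Col9a3, Col4a5 and Col4a6. Col4a5 and Col4a6, named after their values were seen, are transcribed from a shared promoter region and lay at the same site on chromosome X, with 7.10 in clone 439 and 5.73 in clone 442. H3K4me3 was present in WT cells at every one of these 8 matrix genes, against 95.3% of the 532 sites. H3K27me3 was listed in the original experiment at 4 of them (Itga4, Mmp2, Mmp9 and Col9a3), against 57.0% of the 532 sites, and the rescue list lacked Itga4 but held Lama4 and Col6a6.

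Other lists gave 4 genes or fewer. They included the Polycomb gene Scmh1, 1 of 14 PRC2 and PRC1 genes at SUZ12 sites (7.14%). The deacetylase gene Hdac3, at a site shared with Fchsd1 and Rell2, was 1 of 28 histone and chromatin modifier genes (3.57%). The stress response gene Gadd45g was 1 of 11 CDK inhibitor and p53 pathway genes (9.09%). The endothelial cadherin gene Cdh5 was 1 of 30 cadherin and adhesion receptor genes (3.33%). Of 30 nuclear receptor genes, 2 were at the sites, Nr1h3 and Rara (6.67%). With so few genes, these shares cannot be told from the 5.56% of all genes. Among 127 solute carriers 4 were at the sites (Slc26a8, Slc39a6, Slc2a10 and Slc2a12), and among 56 clustered protocadherins 4 (Pcdhb15, Pcdhb16, Pcdhga2 and Pcdhga3), with Pcdhb15 and Pcdhb16 sharing a site. Genes of pluripotency (8 at SUZ12 sites), the germline (14) and imprinting (25) had none at the 532 sites. These lists are too short for a count of 0 to be told from the 5.56% of all genes. Most of their genes were at a WT SUZ12 site: 5 of 8, 10 of 14 and 22 of 25. In all, 10 of 26 lists had no gene there.

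The promoters at the sites were CpG-rich compared with promoters in general and less often so than those at mutant-shared sites with H3K27ac. A RefSeq window touched 192 of the 532 sites. Taking the window nearest the centre of each site, 101 of 192 (52.6%, interval 45.6% to 59.5%) had over 50% G+C and a CpG ratio above 0.6, against 33.3% of all 32851 windows. The share was 75.5% at 241 mutant-shared sites with H3K27ac, a difference of -22.9 points (-31.6 to -13.9), and 64.1% at 2212 common sites without H3K27ac, a difference of -11.5 points (-18.8 to -4.27). In comparisons added after seeing the data, the common sites of like strength (284 with a window) had 54.9%, a difference of -2.33 points (-11.4 to 6.73), and those of like width (705) had 58.6%, a difference of -5.98 points (-13.9 to 1.88), so the gap to common sites was not resolved once strength or width was alike. The median CpG ratio was 0.642 at the 192 sites, 0.768 at mutant-shared sites with H3K27ac and 0.716 at common sites without it. Hoxd4, Itga4 and Gm35223, printed above, fell below the limit of 0.6, and Scmh1 and Gm30177 above it. The windows of the 12 strongest sites that were not printed, those of Gm8909 (0.27) and Gm10575 (0.13), also fell below it.

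**Figure D4:**
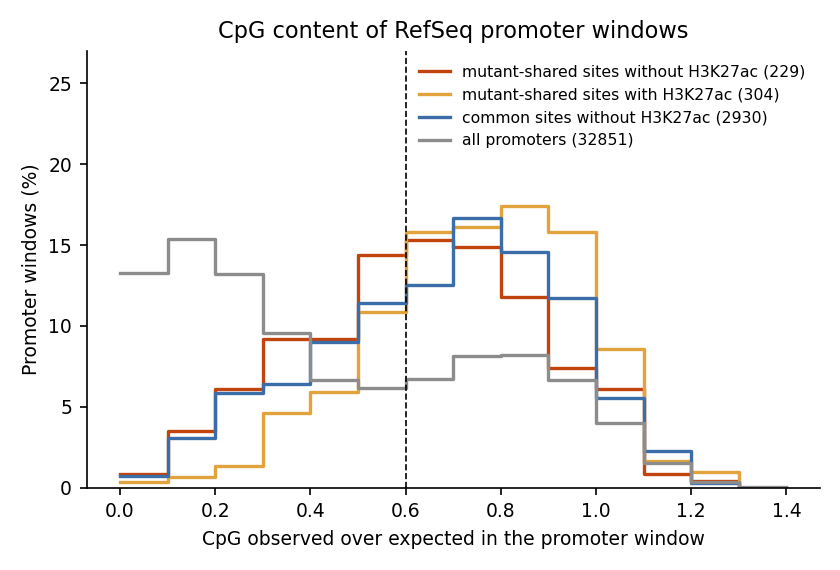
Distribution of the CpG observed over expected ratio in RefSeq promoter windows (horizontal), as percent of windows (vertical), for 229 windows at the 532 sites, 304 at mutant-shared sites with H3K27ac, 2930 at common sites without H3K27ac and all 32851. The dashed line marks 0.6, and the windows at the 532 sites lie left of those at mutant-shared sites with H3K27ac and right of most promoters.

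Short motifs were counted on both strands in the 229 windows that touched the sites. The GC box GGGCGG was in 70.3% of them, against 35.7% of all windows, and CGCG was in 66.4%, against 38.0%. TATAA, the core of the TATA box, was in 11.4%, against 24.9% of all windows, CCAAT in 34.5%, against 37.4%, and the E-box CACGTG in 8.30%, against 7.15%. GGGCGG and CGCG both contain CpG, so their shares move with the CpG content above. At common sites without H3K27ac the shares were 64.8% for GGGCGG, 72.1% for CGCG and 12.6% for TATAA. At mutant-shared sites with H3K27ac they were 72.7% for GGGCGG, 78.3% for CGCG and 13.5% for TATAA. A low share of TATAA was thus common to these sets of SUZ12 sites. A match is a run of letters and not a bound site.

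The H3K27ac limit of the rule was crossed by small distances at its edge. Just inside it, with no overlap, were Foxk1 (7 bp from an H3K27ac peak), B4galt5 (10 bp), Gm40369 (12 bp), Abca2 (15 bp) and Calca (28 bp). Just outside it were the mutant-shared sites at Pusl1 and Acap3 (4 bp under H3K27ac), Itprid2 (15 bp), Plcd3 (28 bp), Tmem169 and Pecr (29 bp) and Fmnl3 (31 bp). Calca, the calcitonin gene, had 11.8 in clone 439 and 11.2 in clone 442, and Itprid2 had 7.96 in clone 439 and 10.7 in clone 442. H3K27ac lay within 1000 bp of 62 of the 532 sites (11.7%). Over all 532 sites, the median distance to H3K27ac was 9914 bp.

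How many sites are shared by the mutant clones alone depended on list length. With all peaks, 532 sites without H3K27ac were held by 439 and 442 and not by WT, against 141 held by WT and 442 and not by 439, and 123 held by WT and 439 and not by 442. With the 5038 strongest peaks of each list, 80% of the WT number, the counts were 131, 110 and 179 by fold enrichment, and 120, 69 and 124 by -log10 q. By either ranking, the count for the mutant clones alone then lay between those of the patterns that lack a mutant clone. With as many strongest peaks from each list as the WT list holds, a setting added after seeing the data, the counts were 274, 140 and 173. Why the mutant lists are longer was not tested. Of the 532 sites, 67 overlapped one of the 131 and 274 one of the 274.

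**Figure D5:**
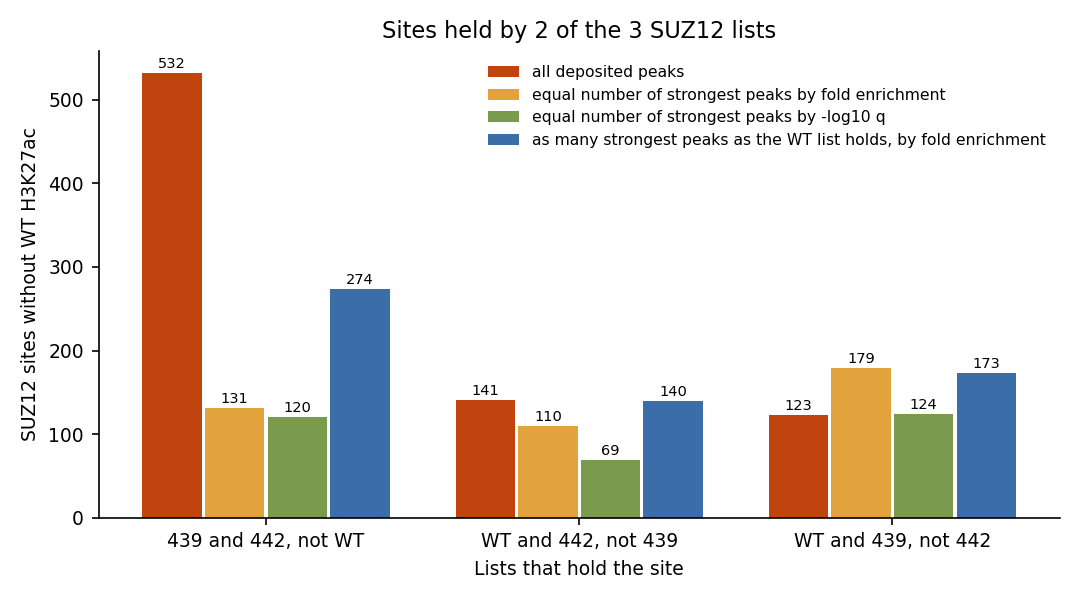
Number of SUZ12 sites without WT H3K27ac held by 2 of the 3 lists, for all peaks, for the strongest peaks in equal number (by fold enrichment and by -log10 q) and for as many as the WT list holds. The count for 439 and 442 without WT is 532 with all peaks and 131 with equal numbers, beside 110 and 179 for the patterns that lack a mutant clone.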

How the data were processed

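The series held 136 samples, and 26 of them lie behind the 10 peak lists used. Tools named in the submitters' processing notes are MACS2 2.1.0, BWA 0.7.15, cutadapt 2.5 and Picard 2.20.7, with the build mm10. Settings of these tools are not given in the sources used. The authors called peaks and deposited 1 list per clone and mark, in which replicates were combined. SUZ12, H3K4me3 and H3K27ac peaks were deposited with fold enrichment over background (a ratio), the -log10 q value and, for SUZ12, the summit position. H3K27me3 and H3K9me3 regions were deposited with a score, from an unnamed caller, which is not reported.

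Peaks were merged and compared by overlap of at least 1 bp in Python 3.11.15 (numpy 2.4.6, pandas 2.3.3, scipy 1.17.1, matplotlib 3.10.9), with functions tested on simulated intervals. No p-value was computed, because the rule used the SUZ12 lists and no list has replicates. Shares have Wilson and differences Newcombe 95% intervals. Gene starts came from RefSeq promoter windows, which cover 17492 of 21887 protein-coding genes, and both gene ends served for the others. Named are the 12 strongest sites, the 5 widest, the 5 farthest from and the 5 nearest to WT SUZ12, the 4 with the largest rank difference in each direction between clones 439 and 442, the 5 on each side of the H3K27ac limit, and up to 6 genes of each list. A few of the results this rule selects are not reported here. The members and gene lists were chosen with earlier results of these data known. Alternatives changed the overlap, the number of peaks, the H3K27ac limit, the mark lists, the covered part of a site and the gene window. Other clones, inputs and mutant mark samples were not analysed here.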

Additional observations from a re-analysis of the deposited data

How the results depend on the processing

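The number of sites was 532 and stayed between 436 and 617 under other overlap, joining, H3K27ac and distance rules, of which the rule that leaves out sites with a WT SUZ12 peak within 5000 bp was added after seeing the data. It moved with list length: 131 sites with the strongest peaks in equal number by fold enrichment, 120 by -log10 q, and 274 with as many peaks as the WT list holds, also added after seeing the data. With the rescue lists, H3K27me3 was at 76.9% of the sites in place of 57.0%, both marks at 73.3% in place of 54.7%, and H3K9me3 at 4.89% in place of 1.32%. H3K4me3 was at 74.8% when it had to cover at least 50% of a site and at 91.4% over the central 500 bp, in place of 95.3%. The difference in H3K4me3 from common sites without H3K27ac was 1.97 points among those of like strength (interval -0.747 to 4.6, which holds 0), in place of -3. That in H3K9me3 was -2.73 points with the rescue list (interval -4.5 to -0.42), which excludes 0, in place of -1.06. A gene start was near 54.7% of the sites at 1000 bp, in place of 60.9% at 2500 bp. The other 21 alternatives stayed within the intervals given, or within 1.5 times for counts. Among them, the difference in H3K27me3 from mutant-shared sites with H3K27ac changed sign, from 1.13 to -5.16 points with the rescue list, close to the lower limit of -5.22. No paired analysis was possible because each list combines the replicates of a clone, and for the same reason no replicate could be left out. Depth limits every count of absent peaks and is unknown here.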

Other observations

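The sites were spread over the chromosomes. On chromosome X, 20 of 222 SUZ12 sites belonged to the 532 (9.01%, 95% Wilson interval 5.91% to 13.5%), and on chromosome 3, 13 of 430 did (3.02%, interval 1.78% to 5.1%), against 6.06% over the genome. These are the highest and lowest shares of chromosomes with over 200 sites and were picked after their values were seen. Among SUZ12 sites without WT H3K27ac that a single mutant list held, 554 in clone 439 and 616 in clone 442, median widths were 958 bp in clone 439 and 952 bp in clone 442, against 1585 bp at the 532 sites. WT H3K4me3 was at 70.2% of the sites in clone 439 alone and at 71.8% of those in clone 442 alone, against 95.3% of the 532 sites. WT H3K27me3 was at 54.2% of the sites in clone 439 alone and at 57.3% of those in clone 442 alone, against 57.0% of the 532 sites.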
